A study of Mus musculus with 15 samples.

Results

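RNA of L1P, a mouse mammary epithelial line recovered from lung after 1 passage in mice, was set against RNA of E1KD, the line from which it was derived. The members are the 3 L1P and the 3 E1KD arrays, 6 of the 15 arrays of the series, with groups taken from the sample titles, and all 18193 genes, each read by 1 probe set. E1KD is NMuMG, a line of normal murine mammary gland epithelium, in which hnRNP E1 was silenced, with no selection in vivo. L1P carries the same silencing and came from the lungs of NOD/SCID mice, which lack working lymphocytes, after E1KD cells had been placed in the mammary fat pad. The 3 other lines have 3 arrays each: the wild-type parent NMuMG, M1P, taken from a fat pad tumour that E1KD cells formed, and L2P, taken from the lungs of mice given L1P cells (2 passages). M1P and L2P are also hnRNP E1 silenced. All lines grew in the same serum-containing medium without added agents other than antibiotics. Each line is 1 line, the labels do not say whether L1P is a clone or a pool or how many mice it came from, and whether its 3 arrays were separate cultures is not stated either. The p-values therefore measure spread between arrays, which may be technical, and no second lung line derived independently from E1KD was analysed here.

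The comparison asks what differs in silenced cells that have passed through the lung once. hnRNP E1, the product of Pcbp1, is an RNA-binding protein that sits on C-rich elements and holds back translation of messages such as Dab2 and Fam3c, the latter encoding the secreted factor ILEI. TGF-beta signalling releases this block, and the released messages help epithelial cells to take on a mesenchymal form. Arrays read RNA levels and not translation. To settle in lung, cells of a mammary tumour must leave the fat pad, survive in blood, lodge in small vessels and grow in a new matrix.

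Values are log2 signals, so that a difference of 1 is a 2-fold change. A level is followed by the SD of 3 arrays, a difference (always L1P minus E1KD unless another line is named) by its standard error, and adjusted p-values are those of limma over all 18193 genes. A gene is said to have risen or fallen at an adjusted p under 0.05. The array median of all probe sets was 4.2, which serves as a rough mark of low signal. Arrays correlated at 0.99 to 0.995 within E1KD, at 0.993 to 0.995 within L1P and at 0.984 to 0.99 between the lines. The 3 M1P arrays lie far apart (0.93 to 0.978 with each other), array 1 farthest: it correlated with L1P arrays at 0.873 to 0.902, array 2 at 0.947 to 0.966 and array 3 at 0.976 to 0.984. They enter the shared estimate of spread.

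Pcbp1 was first read in every array as a check of the labels. It stood at 9.36, 8.99 and 9.40 in E1KD and at 8.78, 8.01 and 8.69 in L1P, against a mean of 12.68 ± 0.10 in NMuMG (SD, n = 3). Both silenced lines were thus far below the parent. The 3 L1P arrays lay below the 3 E1KD arrays, but the difference of -0.75 ± 0.22 did not pass (adjusted p = 0.114). It passed with M1P left out of the model (adjusted p = 0.0399) and with array weights (0.0155).

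In L1P 217 genes rose (1.19% of those tested) and 235 fell (1.29%), together 452 or 2.48%. Of these 133 rose and 145 fell at least 2-fold. The median difference over all genes was -0.03. All 452 genes had 3 L1P arrays beyond the 3 E1KD arrays, as did 4336 of the 18193 genes in all. The count was 298, 292 and 294 without E1KD array 1, 2 or 3, and 272, 274 and 286 without L1P array 1, 2 or 3. With only these lines in the model it was 1195, and without M1P array 1, a setting added after seeing the data, 836. A further 10092 probe sets without a single gene symbol were tested apart, and 62 of them passed (0.614%), 31 in each direction.

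**Figure D1:**
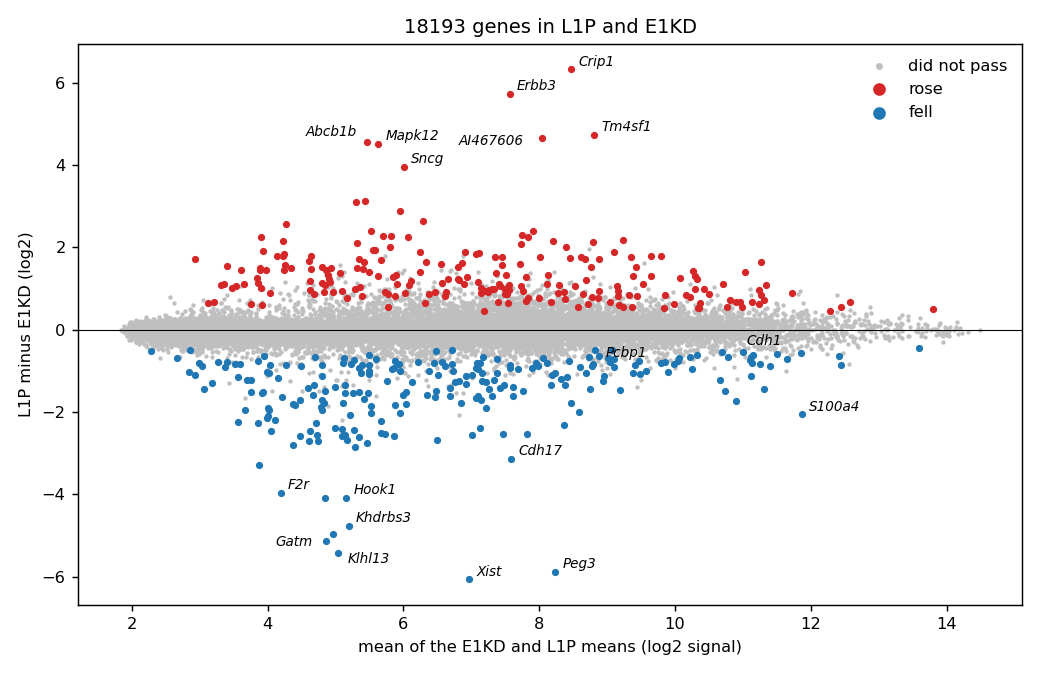
Each point is a gene, with the mean log2 signal of both lines on the horizontal axis and the log2 difference of L1P from E1KD on the vertical axis; red genes rose, blue genes fell and grey genes did not pass. Crip1 at 6.32 and Xist at -6.06 lie farthest from 0, while Pcbp1 at -0.75 and Cdh1 at -0.46 are among the grey points.

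A small set of genes went from a signal below the array median on all arrays of one line to at least 7.2 on all arrays of the other, 3 upward (Abcb1b, Mapk12 and Sncg) and 3 downward (Xist, Gatm and Khdrbs3). The promoters of the 2 with the largest differences in each direction are shown because these genes came closest to an on or off state. They are the 250 bases before the start of the gene from RefSeq on GRCm38.p6, written 5′ to 3′ on the gene's strand, with CG dinucleotides, the sites of DNA methylation, in capitals. The Abcb1b sequence is chr5:8797897-8798146 (plus strand), Mapk12 is chr15:89140704-89140953 (minus), Xist is chrX:103483234-103483483 (minus) and Gatm is chr2:122611278-122611527 (minus).
Abcb1b: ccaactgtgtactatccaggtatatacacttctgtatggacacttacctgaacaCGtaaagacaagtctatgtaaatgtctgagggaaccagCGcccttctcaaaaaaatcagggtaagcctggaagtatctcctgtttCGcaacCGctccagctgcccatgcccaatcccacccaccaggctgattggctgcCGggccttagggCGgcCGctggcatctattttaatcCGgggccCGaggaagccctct
Mapk12: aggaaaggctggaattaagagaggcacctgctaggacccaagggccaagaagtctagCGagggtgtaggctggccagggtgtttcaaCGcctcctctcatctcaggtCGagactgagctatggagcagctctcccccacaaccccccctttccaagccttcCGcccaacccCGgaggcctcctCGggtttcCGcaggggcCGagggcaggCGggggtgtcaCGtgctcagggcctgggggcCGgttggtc
Xist: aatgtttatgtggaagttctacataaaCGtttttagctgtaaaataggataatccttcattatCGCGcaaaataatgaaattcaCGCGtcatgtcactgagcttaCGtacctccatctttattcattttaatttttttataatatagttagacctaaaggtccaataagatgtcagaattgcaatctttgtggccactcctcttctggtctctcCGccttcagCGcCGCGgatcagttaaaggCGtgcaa
Gatm: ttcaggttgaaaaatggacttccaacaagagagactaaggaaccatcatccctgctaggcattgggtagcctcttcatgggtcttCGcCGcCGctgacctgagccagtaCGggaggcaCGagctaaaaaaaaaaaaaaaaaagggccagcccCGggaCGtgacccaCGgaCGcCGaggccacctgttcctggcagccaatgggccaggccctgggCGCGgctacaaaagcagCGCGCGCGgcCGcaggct
These windows held 9 CG dinucleotides for Abcb1b, 11 for Mapk12, 11 for Xist and 17 for Gatm. Methylation was not measured here. 3 motifs were searched on both strands: CACCTG, bound by Snail and Zeb repressors, TGANTCA, bound by AP-1, and GGAATG, bound by TEAD factors. The first occurs in the Mapk12 and Gatm windows, and the other two in 0 of the 4. Over promoters from 250 bases before to 50 bases after the start, CACCTG was in 20% of 175 genes that rose, 13% of 185 that fell and 19.7% of all 14368 with a promoter in the table. TGANTCA was in 5.14%, 8.11% and 6.29%, and GGAATG in 14.9%, 15.1% and 13%. The median number of CG dinucleotides was 16 in genes that rose, 16 in genes that fell and 17 in all.

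The largest rise was that of Crip1, a small LIM domain protein. It read 5.4, 5.06 and 5.48 in E1KD and 11.71, 11.82 and 11.39 in L1P (80.1-fold). M1P was near the L1P level, at 10.99 ± 0.21. Erbb3, a neuregulin receptor that signals by pairing with Erbb2, read 4.63, 4.63 and 4.84 in E1KD and 10.57, 10.33 and 10.40 in L1P (53.2-fold, 5.73 ± 0.39, adjusted p = 1.92e-06). Both sets of arrays were tight, with no overlap. A second Erbb3 probe set differed by only -0.13, so the rise rests on 1 of 2 probe sets. Tm4sf1, a membrane protein of motile and endothelial cells, went from 6.85, 6.12 and 6.35 to 11.26, 11.03 and 11.24 (26.7-fold), still 0.95 below NMuMG. AI467606 followed at 25.1-fold, with its second probe set at 4.44.

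Abcb1b encodes a P-glycoprotein, a pump that exports drugs and lipids. Its arrays stood at 2.94, 3.14 and 3.46 in E1KD and at 7.96, 7.49 and 7.81 in L1P (23.8-fold, 4.57 ± 0.15, adjusted p = 6.58e-10). A second Abcb1b probe set was flat at 0.07. Mapk12, the stress kinase p38 gamma, read 3.30, 3.14 and 3.68 against 7.82, 8.04 and 7.78 (22.8-fold), and its second probe set stood at 0.59. Sncg, gamma-synuclein, went from 3.99, 4.14 and 3.98 to 7.70, 8.56 and 7.69 (15.4-fold, 3.95 ± 0.34, adjusted p = 1.9e-05). E1KD arrays were thus at background-like levels and L1P arrays at middle levels for all 3 genes.

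Further rises spanned several functions. Nxf3, of the RNA export factor family, rose 8.69-fold, the lymphocyte receptor Ly9 8.62-fold and Nostrin, which binds endothelial nitric oxide synthase, 7.38-fold. Wdfy4, a gene of antigen cross-presentation, rose 6.2-fold, the meiotic recombination gene Mei4 5.95-fold and the carboxylesterase Ces2g 5.27-fold. Sigirr, which dampens interleukin-1 and Toll-like receptor signals, read 6.94, 6.50 and 6.71 in E1KD and 9.36, 9.02 and 8.95 in L1P (5.26-fold). Serpinh1, the chaperone of collagen folding, read 6.95, 6.26 and 6.57 against 8.97, 9.16 and 8.56 (4.93-fold), and both of its probe sets rose. Wdfy4 had a second probe set at -0.04.

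Xist, the RNA that coats and silences an X chromosome, had the largest fall among named genes, to a signal below the array median. It read 10.07, 10.77 and 9.16 in E1KD and 3.98, 3.83 and 3.98 in L1P (66.9-fold lower, -6.06 ± 0.35, adjusted p = 3.41e-07), and its 2 other probe sets fell as well, at -7.16 and -5.15. Peg3, an imprinted zinc finger gene expressed from the paternal copy, read 10.90, 11.47 and 11.14 against 5.64, 4.40 and 5.84 (58.7-fold lower). Of its 5 probe sets 3 fell, and the smallest difference was -0.03. Klhl13, an adaptor of a ubiquitin ligase encoded on the X chromosome, went from 7.03, 7.68 and 8.52 to 2.39, 2.47 and 2.15 (42.4-fold lower), with both probe sets falling. Mbnl3, an X-linked splicing regulator, fell 6.99-fold, and its 2 other probe sets fell as well, at -3.5 and -0.91.

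2 metabolic genes fell to background-like signals. Gatm, the first enzyme of creatine synthesis, read 7.32, 7.40 and 7.53 in E1KD and 2.40, 2.05 and 2.43 in L1P (34.7-fold lower, -5.12 ± 0.13, adjusted p = 4.88e-11). Bcat1, which transaminates branched-chain amino acids in the cytosol, read 7.94, 6.84 and 7.58 against 2.61, 2.54 and 2.33 (31.2-fold lower, with other probe sets at -1.03 and -0.72). L1P thereby stood at the NMuMG level for both, with differences from NMuMG of -0.27 (adjusted p = 0.191) for Gatm and 0.05 (0.915) for Bcat1. Khdrbs3, an RNA-binding splicing regulator, fell 27.1-fold, from 7.85, 7.31 and 7.56 to 2.65, 2.94 and 2.85. F2r, the thrombin receptor, fell 15.5-fold from arrays at 6.19, 6.10 and 6.22, and was 8.32 lower than in NMuMG on the log2 scale.

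The other large falls were of varied function. Elmod1, a GTPase-activating protein for Arf proteins, fell 17.1-fold, and Hook1, which links cargo to microtubules, fell 16.9-fold, with its second probe set at -0.5. Scara3, a scavenger receptor, fell 9.69-fold and Adgrl2, an adhesion receptor of the latrophilin family, 6.76-fold. Cdh17, the liver-intestine cadherin, read 9.24, 9.01 and 9.24 in E1KD and 6.10, 6.14 and 5.82 in L1P (8.84-fold lower). Thbs1, a matrix protein that restrains vessel growth, read 6.76, 6.32 and 7.04 against 4.10, 3.56 and 3.96 (7.14-fold lower), and both of its probe sets fell. Mfap3l fell 6.56-fold in 1 of 3 probe sets. Of the 30 largest rises and falls, 17 had more than 1 probe set, and in 10 of these at least 1 probe set did not pass in the same direction.

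**Figure D2:**
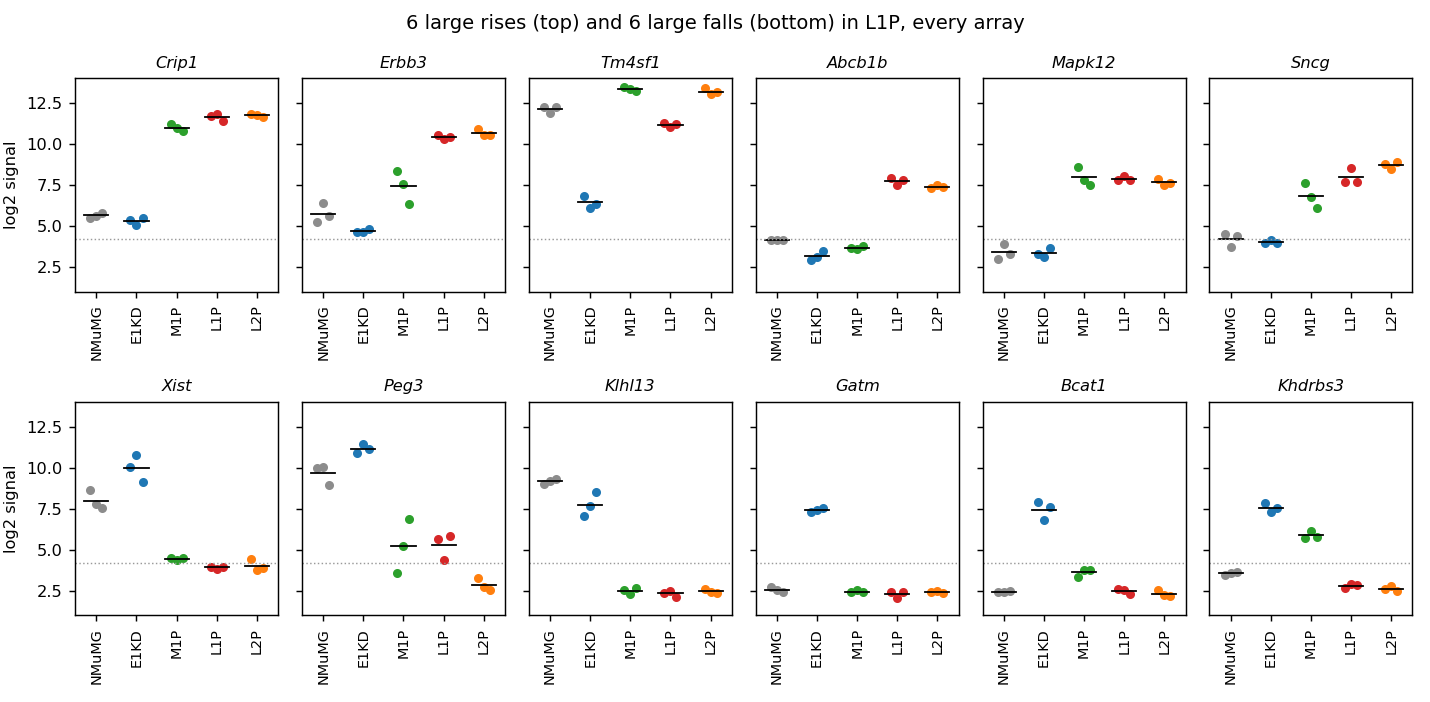
Every array of the 5 lines is a point on the log2 signal axis for 6 large rises (top) and 6 large falls (bottom), with the mean of 3 arrays as a black bar and the array median of 4.2 as a dotted line. The L1P points of Abcb1b, between 7.49 and 7.96, lie above those of E1KD, between 2.94 and 3.46, and for Xist the order is turned round.

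Genes were then read by group. The list of cholesterol and fatty acid synthesis, a pathway that SREBP factors switch on when membrane sterol is low, stood lower in L1P. Its median difference was -0.56 against -0.03 for all genes, and 24 of 25 members were lower, where 44.5% of all genes were higher. The mean level over the list was 9.03 to 9.10 on the E1KD arrays and 8.38 to 8.61 on the L1P arrays, without overlap. 4 of 25 fell and 0 rose, and 11 had an unadjusted p under 0.05, all lower. Over all genes 1.29% fell and 1.19% rose. In all, 1823 of 18193 genes had an unadjusted p under 0.05 in limma. The counts of every list are to be set beside these. Mvd, which makes isopentenyl diphosphate, read 7.43, 7.33 and 7.44 in E1KD and 6.0, 6.39 and 5.99 in L1P (2.42-fold lower, adjusted p = 0.0106). Nsdhl, a sterol dehydrogenase, read 8.96, 8.98 and 9.02 against 7.77, 7.90 and 7.84 (2.22-fold lower, -1.15 ± 0.16, adjusted p = 0.00123). Fdps, which makes farnesyl diphosphate, fell 2.11-fold (a second probe set stood at 0.11) and Sqle, the squalene epoxidase, 1.77-fold. Idi1 at -1.21, Hmgcs1 at -0.93 and the regulator Insig1 at -0.68 did not pass. Fatty acid enzymes were nearer 0, with Fasn at -0.11 and Acaca at -0.07. The 4 calls became 2 without any E1KD array or without L1P array 2, and 1 without L1P array 1 or 3. Fdps did not pass without any 1 of the 6 arrays (adjusted p = 0.0659 to 0.147), nor did Sqle (0.0796 to 0.173), and Mvd failed without L1P array 1 or 3 (up to 0.0592).

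The list of ER stress and the unfolded protein response, which raises the folding capacity of the secretory pathway, lay the other way, with a median of 0.18 and 21 of 25 members higher, 3 of them at an unadjusted p under 0.05. The mean level over the list overlapped between the lines, at 9.37 to 9.57 on the E1KD arrays and 9.55 to 9.93 on the L1P arrays. Only Xbp1, the transcription factor of that response, rose, from 9.86, 10 and 9.92 to 10.88, 11.19 and 10.70 (2-fold, 1.00 ± 0.15, adjusted p = 0.0017). Dnajc3 had a larger difference of 1.41 but did not pass (adjusted p = 0.0825), and the chaperone Hspa5 stood at 0.34 (0.889).

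**Figure D3:**
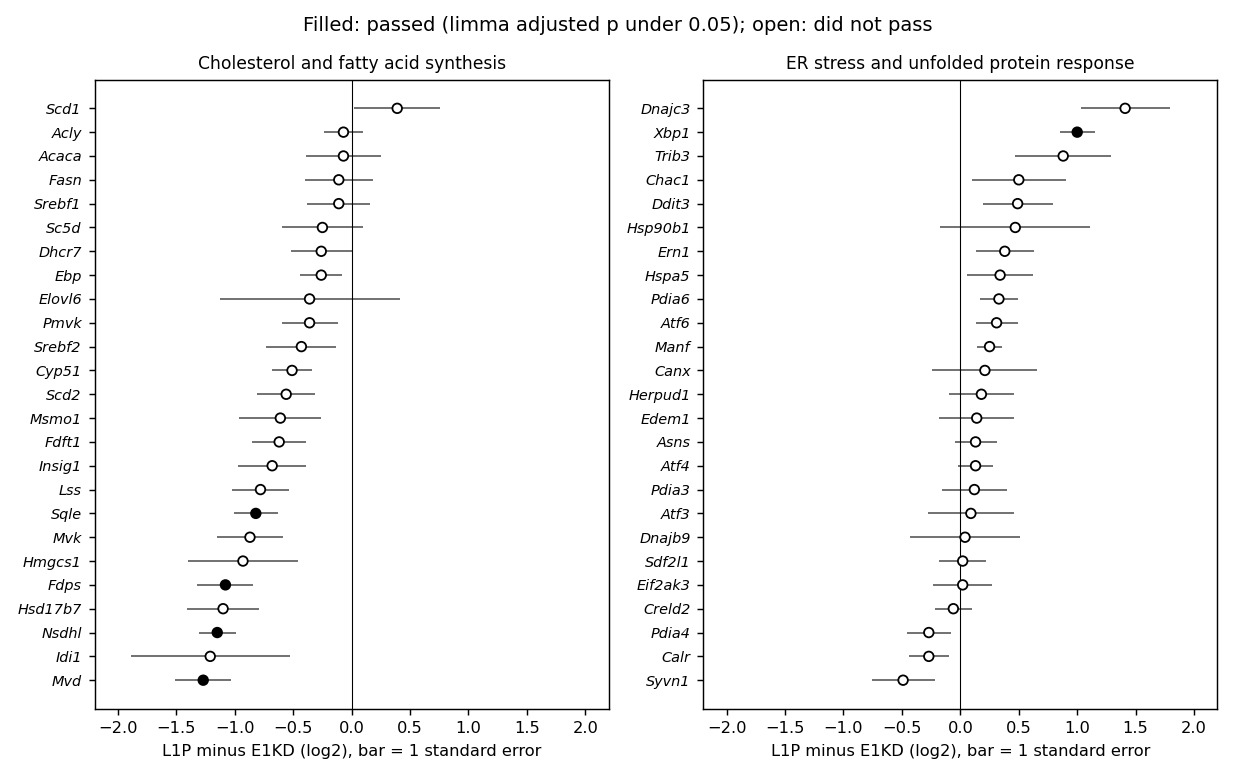
Log2 differences of L1P from E1KD, with bars of 1 standard error, for 25 genes of cholesterol and fatty acid synthesis (left) and 25 of the unfolded protein response (right); filled points passed and open points did not. On the left 24 of 25 points lie below 0 and 4 are filled, and on the right 21 of 25 lie above 0 and 1 is filled.

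Counts in the lists that follow are to be read against the 1.19% of all genes that rose and the 1.29% that fell. Counts at an unadjusted p under 0.05 are to be read against 1823 of all 18193 genes. A list with few calls is not thereby shown to be level. Of 31 junction and polarity genes only Marveld2, a protein of tricellular junctions, rose, from 2.68, 2.44 and 2.75 to 4.2, 4.25 and 4.06 (2.93-fold), and 0 fell. Cdh1, E-cadherin, read 11, 11.13 and 11.38 in E1KD and 10.60, 11.06 and 10.46 in L1P, and these overlapping arrays did not pass (-0.46, adjusted p = 0.652). Among 20 keratins and mammary markers Muc1, the apical mucin, read 8.86, 9.08 and 9.34 against 6.67, 6.46 and 6.51 (5.82-fold lower, adjusted p = 0.000224). The simple-epithelial keratins Krt8 and Krt18 were at 13.90 and 13.69 in E1KD and differed by -0.03 and 0.04. In the list of 21 epithelial transcription factors and splicing regulators Cdh16, a cadherin, fell 2.89-fold and Myo5b, a motor of apical transport, 2.12-fold, in 1 of 3 probe sets. Myo5b did not pass without any 1 of the 6 arrays (adjusted p = 0.0605 to 0.173).

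Of 22 mesenchymal genes and EMT factors 2 fell and 0 rose. 4 passed with M1P left out of the model, with array weights or with only the L1P and E1KD arrays. S100a4, a calcium-binding protein often used as a mesenchymal marker, read 12.63, 12.94 and 13.09 in E1KD and 10.77, 11.04 and 10.71 in L1P (4.14-fold lower, -2.05 ± 0.14, adjusted p = 1.92e-06). Fn1, fibronectin, read 10.06, 9.11 and 9.60 against 8.14, 7.21 and 7.43 (3.98-fold lower, -1.99 ± 0.34, adjusted p = 0.00532), while staying 1.60 above NMuMG (adjusted p = 0.00637). Vim, the intermediate filament vimentin, stood at 0.13 (adjusted p = 0.917), N-cadherin Cdh2 at -0.47 (0.821) and the repressors Zeb1 and Snai2 at -0.04 (1) and 0.62 (0.836). The list median was -0.12. In the list of hnRNP E1 and its targets 0 of 16 passed in limma, and 4 had an unadjusted p under 0.05, all lower. Its best known translational targets, Dab2 at -0.59 (adjusted p = 0.231) and Fam3c at -0.36 (0.481), did not pass, nor did the activin subunit Inhba at -0.64 (0.251). Dab2 had low signals, 4.36 in E1KD and 3.77 in L1P. It passed with M1P left out of the model, with array weights and with only the L1P and E1KD arrays (adjusted p down to 0.032). Fam3c passed with array weights (0.0274). Lifr, the receptor for leukaemia inhibitory factor, did not pass either (-0.34, adjusted p = 0.51), at low signals of 3.89 in E1KD and 3.55 in L1P. Of its 3 probe sets 1 fell.

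In the signalling lists at most 1 member of each passed, where 2.48% of all genes did. Among 23 ErbB ligands, receptors and feedback genes Erbb3 alone rose. Its partner Erbb2 stood at -0.15 and Egfr at 0.04, its ligand Nrg1 at 0.53 (adjusted p = 0.65). Of 32 genes of TGF-beta, activin and BMP signalling Bmp2, a BMP ligand, fell from 4.52, 4.93 and 5.52 to 2.72, 2.66 and 2.80 (4.8-fold, adjusted p = 0.00442), and the list median was 0.01. Wnt10a, a Wnt ligand, rose 4.84-fold among 30 Wnt genes, from 4.78, 5.08 and 4.18 to 6.89, 7.19 and 6.79, but passed only without E1KD array 2 of the 6 arrays left out in turn (adjusted p = 0.0361 there and up to 0.0982). Fgfr2, a receptor for FGF ligands, fell 1.79-fold among 17 FGF genes, in 1 of 3 probe sets. Ccn2, a matrix-associated target of the YAP and TEAD factors, fell 3.33-fold among 21 Hippo genes, from 11.67, 11.63 and 11.99 to 10.14, 9.76 and 10.18, but passed on no 5 arrays (adjusted p = 0.0813 to 0.133). None of 17 Notch genes passed in limma, with 2 at an unadjusted p under 0.05. Sema3b, a secreted guidance factor, rose 2.86-fold among 32 axon guidance and Eph genes, in 1 of 3 probe sets.

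In the matrix lists Thbs1 was the only change among 28 collagens and matrix genes, whose median was -0.1, and 0 of 27 laminins and integrins passed in limma (3 at an unadjusted p under 0.05). 2 of 29 matrix proteases and inhibitors rose. Adam8, a membrane protease of invading cells, read 7.10, 6.37 and 6.65 in E1KD and 9.35, 8.77 and 8.77 in L1P (4.77-fold, 2.25 ± 0.33, adjusted p = 0.00158). Mmp10, stromelysin-2, read 4.27, 4.26 and 4.32 against 5.83, 5.12 and 5.64 (2.36-fold). Of this list 20 members were higher and the median was 0.09. Among 22 actin and contractile genes Crip2, a relative of Crip1, rose 3.39-fold beside it. Of 23 lung metastasis genes Lxn, a carboxypeptidase inhibitor, rose 2.32-fold, and the classical members Tnc, Ptgs2 and Vcam1 stood at -0.08, 0.05 and -0.73 and did not pass. Procr, the protein C receptor found on mammary stem cells, read 7.70, 7.09 and 7.36 against 9.86, 8.85 and 9.48 (4.04-fold, 2.01 ± 0.27, adjusted p = 0.000904), the only change among 21 stem cell and tumour-initiating markers.

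Among hypoxia and glycolysis genes Epas1, the hypoxia factor HIF-2 alpha, read 5.45, 5.67 and 6.18 in E1KD and 3.25, 3.07 and 3.21 in L1P (6.02-fold lower, adjusted p = 0.000519), in 1 of 2 probe sets. In the same list of 28 hypoxia and glycolysis genes Pgam1, a glycolytic mutase, fell 1.47-fold and Eno2, an enolase, rose 2.07-fold. Neither passed without any 1 of the 6 arrays (adjusted p = 0.0613 to 0.132 for Pgam1 and 0.0599 to 0.223 for Eno2). Gstp1, a glutathione transferase, rose 1.6-fold among 27 Nrf2 and glutathione genes, and failed without E1KD array 2 or 3 or L1P array 1 or 2 (up to 0.0862). The 31 proliferation genes had a median of 0.02. Ccne1, cyclin E1, fell 1.57-fold among them and passed only without E1KD array 2 of the arrays left out (adjusted p = 0.031 there, up to 0.133). Gadd45b, a stress-induced growth arrest gene, fell 1.88-fold among 22 p53 and cell cycle inhibitor genes but not without any 1 of the 6 arrays (adjusted p = 0.0562 to 0.176).

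Il33, an alarm cytokine of epithelia, read 7.95, 8.87 and 8.59 in E1KD and 9.92, 10.50 and 10.27 in L1P (3.39-fold, adjusted p = 0.0172), and failed without E1KD array 1 or 3 or L1P array 2 or 3 (up to 0.0921). Il1rn, the interleukin-1 receptor antagonist, fell 1.64-fold among the same 32 cytokines and chemokines and passed only without E1KD array 1 of the arrays left out (0.045, up to 0.202). The Il1rn call was also lost after quantile normalization, with another prior and among brighter genes only. Other Il1rn probe sets stood at -0.44 and -0.33. Irf9, a subunit of the interferon-activated factor ISGF3, rose 1.93-fold as the only 1 of 27 interferon-stimulated genes, and passed only without E1KD array 1 of the arrays left out (0.048, up to 0.127). Of 16 antigen presentation genes 0 passed in limma and 4 had an unadjusted p under 0.05, with the class I genes H2-D1 at 1.38 (adjusted p = 0.0732) and H2-K1 at 1.23 (0.0725). Imprinted genes other than Peg3 did not pass: 23 of 24, led by Igf2r at -0.78. Of 9 X inactivation genes Xist alone fell, and the activators Jpx and Ftx stood at -0.47 (adjusted p = 0.115) and -0.54 (0.53).

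Markers of other cell types were checked because host cells of lung are also of mouse origin. Of the 8 fibroblast markers, among them Col1a1 and Pdgfra, 7 were below the array median on all 6 arrays, and the brightest reading was 4.23 for Col1a2. Their mean level was 3.35 to 3.46 in E1KD and 3.34 to 3.37 in L1P. Endothelial markers were at 3.24 to 3.51 and 3.17 to 3.4, with Kdr brightest at 4.68, and alveolar and airway markers at 4.26 to 4.42 and 4.05 to 4.24, with Foxj1 at 5.59. Macrophage and leukocyte markers stood at 3.72 to 3.95 in E1KD and 3.95 to 4.11 in L1P, with Cd68 brightest at 5.9. In these 4 sets 0 markers rose and 0 fell. The 6 mammary epithelial markers were at 8.61 to 8.69 and 8.44 to 8.67, with Krt8 at 14.02, while Krt14 and Krt5, of basal cells, were low in both lines at 3.18 and 4.70 in E1KD. The longer cell type lists held 3 changes: Aqp5, a water channel of alveolar and secretory epithelium, fell 3.1-fold, Fabp4, a fatty acid carrier, fell 1.72-fold from 3.66, a low signal, and the casein Csn3 rose 3.16-fold. Fabp4 did not pass without any 1 of the 6 arrays (adjusted p = 0.0601 to 0.184), and its other probe sets lay between -0.45 and 0.09. Csn3 failed without E1KD array 1 or L1P array 2 (up to 0.0551), and a second Csn3 probe set stood at -0.08. The Y-linked genes Eif2s3y, Kdm5d and Uty read at most 2.94 in either line, and Sry averaged 4.7 in E1KD and 4.71 in L1P.

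Genes called in L1P were not spread evenly over the chromosomes, as assigned from RefSeq (GRCm38.p6). Chromosome 14 holds 3.52% of the genes tested and 28.6% of those that rose. On it 62 of 641 genes rose (9.67%, against 1.19% of all genes) and 5 fell. Chromosome 19 holds 3.35% of the genes and 18.3% of those that fell: 43 of 609 (7.06%, against 1.29%), while 7 rose. On chromosome 7, 29 of 1413 rose (2.05%) and 9 fell. The X chromosome had 3 rises and 15 falls among 617 genes. Leaving out 1 array gave 34 to 48 rises on chromosome 14, 15 to 23 falls on chromosome 19 and 12 to 19 rises on chromosome 7. Rises on chromosome 14 were fewest without E1KD array 2, L1P array 1 or L1P array 2 (34, 39 and 35). Falls on chromosome 19 were 23, 22 and 16 without E1KD array 1, 2 or 3 and 19, 19 and 15 without L1P array 1, 2 or 3. Rises on chromosome 7 were 19, 12 and 16, and 14, 14 and 19, in the same order. Other settings gave more: with M1P left out of the model, with only the L1P and E1KD arrays and with array weights, chromosome 14 had 126, 157 and 168 rises, chromosome 19 had 96, 112 and 132 falls and chromosome 7 had 77, 89 and 118 rises.

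Genes that were not called shifted as well, in every L1P array. Over genes above the median signal, the median difference was 0.59 on chromosome 14 (275 of 296 genes higher) and -0.36 on chromosome 19 (252 of 334 lower), against 0.01 for all 9096 such genes. Taken array by array against the E1KD mean and less the median of all genes, chromosome 14 stood at 0.53, 0.57 and 0.63 in L1P and at -0.04 to 0.02 in E1KD. Chromosome 19 stood at -0.36, -0.36 and -0.35 in L1P and at 0 to 0.02 in E1KD. These groups do not overlap, and 3 arrays against 3 allow no exact two-sided permutation p below 0.1, so none is given. NMuMG, with -0.09 to 0.01, and M1P, with -0.45 to -0.03, were not raised on chromosome 14, and L2P was, at 0.38 to 0.62. On chromosome 19 NMuMG stood at 0.26 to 0.34, M1P at 0.05 to 0.28 and L2P at -0.38 to -0.29. Whether the number of copies of these chromosomes differs between the lines was not tested.

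**Figure D4:**
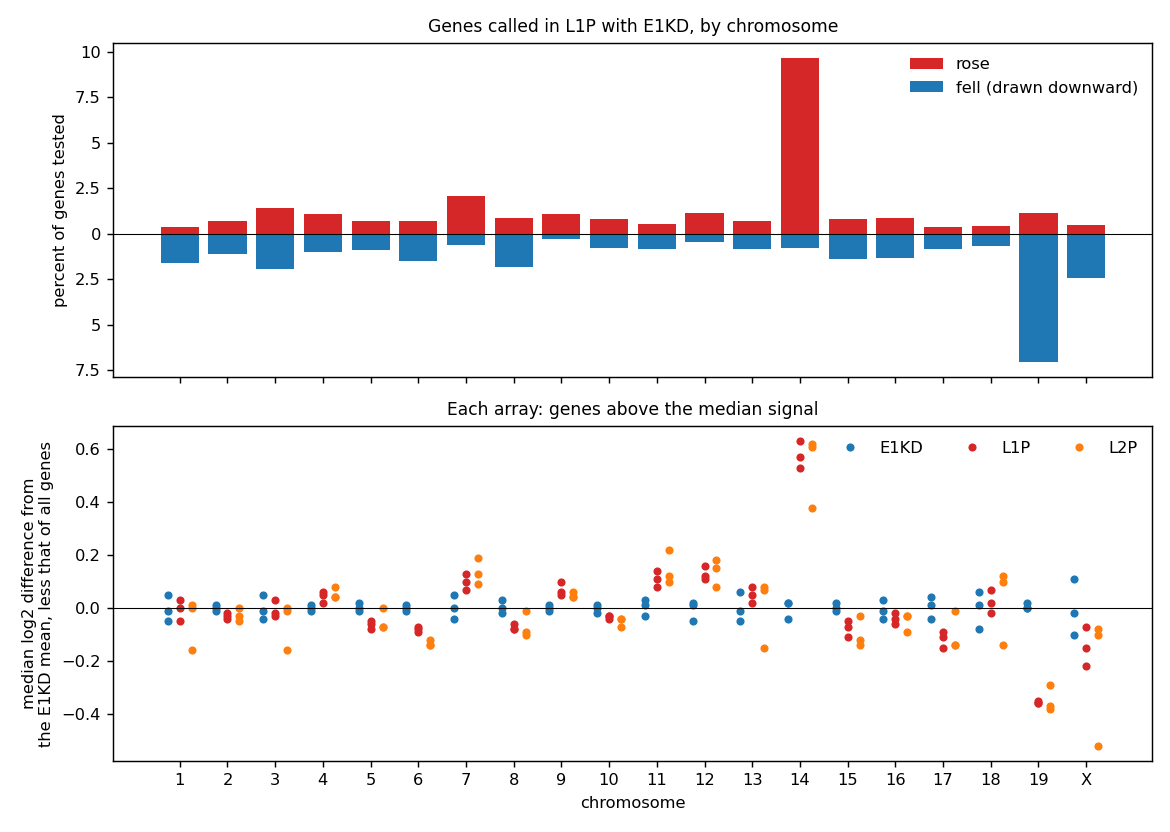
The upper bars give the percent of genes tested on each chromosome that rose (upward) or fell (downward) in L1P; the lower points give, for each array of E1KD, L1P and L2P, the median log2 difference of its brighter genes from the E1KD mean, less that of all genes. Chromosome 14 reaches 9.67% for rises and chromosome 19 reaches 7.06% for falls, and all 3 L1P points lie at 0.53 to 0.63 and -0.36 to -0.35.

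Chromosomes were divided into 10 stretches of equal gene number in gene order. Medians are over genes above the median signal, and counts of rises over all genes tested. On chromosome 14 the median was above 0 in all 10, from 0.4 to 0.95, and highest in the sixth, where 15 of 64 genes rose. Chromosome 19 was not shifted along its whole length. The first stretch stood at 0.25 and the second at 0.01, and the other 8 lay between -0.57 and -0.3. Chromosome 7 divided near its middle. The 706 genes before the middle held 3 rises, with a median of -0.14 over the 301 above the median signal. The 707 genes after it held 26 rises, with a median of 0.32 over 367 such genes. Over the latter the 3 L1P arrays stood at 0.32, 0.3 and 0.28 and the E1KD arrays at 0.03, -0.04 and 0. Over the whole of chromosome 7, taken array by array as above, L1P stood at 0.07 to 0.13 and L2P at 0.09 to 0.19. M1P stood higher, at 0.33 to 0.57, and NMuMG at -0.01 to 0.11. Sigirr, Serpinh1, Adam8 and AI467606 are on chromosome 7, and Peg3, on the same chromosome, fell.

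**Figure D5:**
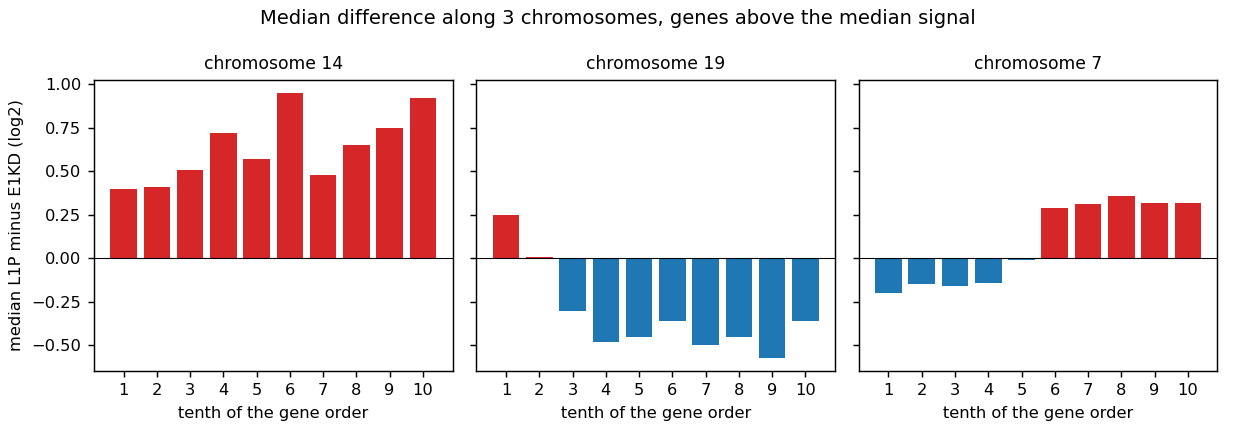
Bars give the median log2 difference of L1P from E1KD for genes above the median signal in each of 10 stretches of equal gene number along chromosomes 14, 19 and 7. All 10 bars of chromosome 14 are above 0, 8 of 10 of chromosome 19 lie at or below -0.3, and those of chromosome 7 change sign near the middle, from -0.14 in the fourth to 0.29 in the sixth.

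Neighbouring genes that rose together were found at 2 places, both on chromosome 14. The first is a run of 22 tested genes from Cpne6 to Ltb4r1, of which 14 rose, by 0.95 to 2.18 with a median of 1.68. The run was found from these calls, so its differences are a description. Psme1, a subunit of the proteasome activator PA28, read 8.18, 7.90 and 8.39 in E1KD and 10.38, 10.46 and 10.15 in L1P (4.52-fold, 2.18 ± 0.22, adjusted p = 8.83e-05). Nedd8, the ubiquitin-like protein that activates cullin ligases, read 10.56, 10.39 and 10.40 against 12.17, 12.09 and 12.01 (3.11-fold, adjusted p = 1.26e-06). Dhrs1, a dehydrogenase, rose 4.44-fold, the importin Ipo4 3.45-fold, Rabggta, a subunit of the enzyme that prenylates Rab proteins, 3.42-fold and Mdp1 3.42-fold. Tinf2, of the shelterin complex at telomeres, rose 3.29-fold, the ribosome assembly factor Nop9 3.28-fold and Emc9, of the ER membrane complex, 3.04-fold. The remaining rises were Dcaf11, Pck2, Rnf31, Tm9sf1 and Irf9, between 0.95 and 1.53. Of the arrays left out in turn, Pck2 passed only without E1KD array 3 (adjusted p = 0.0498, up to 0.166). Tm9sf1 passed on no 5 arrays (0.0676 to 0.161), and Irf9 is given above. The 8 genes between them that did not pass, Cpne6, Nrl, Fitm1, Rec8, Tssk4, Tgm1, Cideb and Ltb4r1, lay between -0.15 and 0.13, at E1KD levels of 3.24 to 6.52.

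The second place is a run of 7 genes from Bin3 to Slc39a14, of which 4 rose by 0.76 to 1.62. Pdlim2, a PDZ and LIM domain protein, rose 3.08-fold, the zinc transporter Slc39a14 2.31-fold (in 1 of 4 probe sets), 9930012K11Rik 1.77-fold and Bin3 1.69-fold. Pdlim2 and Bin3 failed without E1KD array 2 or L1P array 2 (adjusted p up to 0.0636 and 0.0653). Ccar2 at 0.24, Ppp3cc at 0.28 and Sorbs3 at -0.16 did not pass, although a second Ppp3cc probe set rose, by 1.01.

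L1P was then tested directly against the other lines for the genes that had passed. These comparisons share the L1P arrays with the one above, so shared directions between them are not independent. Against M1P 7186 of 18193 genes differed (39.5%), but 3263 when M1P array 1 was left out and 1327 when arrays 1 and 2 were, settings chosen after seeing the data, the latter of which leaves M1P as 1 array assumed to vary like the other lines. It was 4591, 4528 and 2489 without L1P array 1, 2 or 3. Abcb1b was higher in L1P than in M1P by 4.08 (adjusted p = 5.74e-09) and by 3.99 against M1P array 3 alone (2.24e-06). Nxf3 was higher by 4.30, AI662270 by 3.38 and the pluripotency-associated gene Dppa2 by 3.12, with 4.14, 3.22 and 2.87 against array 3. Cyp2c55, an epoxide-forming cytochrome, was higher by 3.04, and 1.74 against array 3. Erbb3 was higher by 3.01 (adjusted p = 0.000481): M1P stood at 7.42 ± 1.02, between E1KD and L1P. Dppa2 and Cyp2c55 rose over E1KD 2.65- and 4.19-fold, calls that failed without any 1 of the 6 arrays (adjusted p = 0.0692 to 0.175 and 0.0903 to 0.157) and after quantile normalization.

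Other genes were lower in L1P than in both lines. Ly6e, a surface protein anchored by a lipid, was lower than in M1P by 5.25 on the log2 scale, where M1P stood at 10.46 ± 0.65, and was 3-fold lower than in E1KD. Its call against E1KD passed only without E1KD array 2 of the arrays left out (adjusted p = 0.0496, up to 0.175), and its second probe set stood at -0.22. The difference from M1P was -4.45 for the defensin Defb41, -3.67 for the G protein subunit Gnb4, -3.67 for Scara3, -3.37 for the cornified envelope gene Sprr1b and -3.34 for the inhibitory receptor Pilra. Sprr1b fell against E1KD 4.27-fold, which failed without E1KD array 2 or 3 or L1P array 2 or 3 (up to 0.0888). S100a4, Muc1 and Khdrbs3 also stood lower than in M1P, by -2.37, -2.69 and -3.06. Xist, Klhl13, Gatm and F2r, at -0.53, -0.18, -0.16 and -0.24, did not pass against M1P, and neither did Mapk12 at -0.09. Not all rises over E1KD were larger in L1P than in M1P. Tm4sf1, Wnt10a, Sigirr and Serpinh1 differed from M1P by -2.17, -2.59, -1.1 and -0.94 (adjusted p = 1.97e-05, 0.00269, 0.0054 and 0.0144). Against M1P array 3 alone these differences were -2.06, -1.31, -0.88 and -0.49. AI467606 did not pass at -0.32, and Crip1 was higher in L1P by 0.65 (adjusted p = 0.0111).

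L2P, grown from L1P by a second lung passage, differed from it in 26 of 18193 genes (0.143%). The count was 5 among genes above the median signal, 69 with M1P left out of the model and 138 with array weights. Tm4sf1 was higher in L2P by 2.02 (adjusted p = 7.73e-05), at 13.20 ± 0.17. Epb41l4a, a band 4.1 family protein, had fallen 5.82-fold in L1P, from 6.98, 6.77 and 7.23 to 4.36, 4.68 and 4.32, and stood at 7.38 ± 0.03 in L2P, higher by 2.93 (adjusted p = 1.44e-06). AI662270 had risen 4.73-fold in L1P, from 4.94, 4.90 and 5.00 to 7.11, 7.21 and 7.25, and was at 4.36 ± 0.14 in L2P, lower by 2.83 on the log2 scale. The cytochrome Cyp2j6, risen 4.46-fold in L1P in 1 of 2 probe sets, was likewise lower in L2P, at -2.08 (adjusted p = 0.0086). For these 3 genes L2P thus stood nearer to E1KD than L1P did. Wfdc15a and Cd177 rose in L1P and stood higher again in L2P, by 1.44 and 1.38, and the sulfotransferase Chst15 fell in L1P and was lower again, at -1.75. Cd177 failed against E1KD without E1KD array 2 (adjusted p = 0.0563) and Chst15 without E1KD array 1 or any L1P array (up to 0.0917). Peg3, at 2.85 ± 0.40 in L2P, did not pass (-2.44, adjusted p = 0.408).

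Against the unsilenced parent, 2688 of 18193 genes (14.8%) differed in L1P. The count was 1710 without L1P array 3, 4870 with M1P left out of the model and 5881 with array weights. Crip1 was higher than in NMuMG by 5.99, Erbb3 by 4.67, Mapk12 by 4.47, Abcb1b by 3.60 and Sncg by 3.77, so these L1P levels lie above both E1KD and the parent. Klhl13 was lower by 6.83 and Xist by 4.07 on the log2 scale. Il33 at -0.20 and Xbp1 at 0.20 did not pass against NMuMG.

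At the threshold itself, Rtn3, a reticulon of the ER, was the last gene to pass (-0.66, adjusted p = 0.0498) and Lsm6, an RNA-binding subunit of spliceosomal complexes, among the first not to (-0.72, 0.0502). Rtn3 did not pass without any 1 of the 6 arrays (0.0946 to 0.213).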

How the data were processed

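Biotin-labelled RNA, amplified at its 3' end from 100 ng total RNA (Trizol, then column clean-up), was hybridised, per the labels' protocols. The authors deposited log2 signals for 45101 probe sets on 15 arrays. RMA, MAS5 and the Affymetrix Expression Console are named in the submitters' processing notes, with no version, role or order. The log2 values, from 1.53 to 14.68, were used as deposited, with no detection calls, so differences against low signals are compressed.

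Probe sets with exactly 1 symbol (34945) were named from the platform table, with symbols updated by Entrez identifier, and 1 per gene was kept, that of highest mean over all 15 arrays. limma 3.58.1 in R 4.3.3 fitted 1 coefficient per line to all 15 arrays, with 10 residual and 2.98 prior degrees of freedom. Two-sided p-values carry a Benjamini-Hochberg adjustment over 18193 genes. Arrays carry no read depth, and 3 per line limits the precision. On data simulated for L1P with E1KD (18193 genes, 200 changed), the test recovered 69.6% of genes changed by 1 and 92.6% of those changed by 2 log2 units. Of the calls on these simulated data, 0.1% were genes that had not been changed.

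The members and gene lists were chosen with earlier results of these data known. Lists are described by counts and medians, with no set test. Genes were named by a rule: 13 set genes, the 15 largest rises and falls with non-overlapping arrays, up to 3 per list and direction, 6 per direction that differed the same way from M1P, 5 per direction that differed in L2P, runs of neighbours (at least 4 of 7 tested genes in a row called alike) and 1 gene on each side of the threshold. Other genes are list or marker members given as values. Alternatives were quantile normalization, brighter genes only, other probe sets, fewer lines in the model, another prior, array weights (gene by gene), a replicate block and each array left out.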

Additional observations from a re-analysis of the deposited data

Results flagged for a closer look

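Several genes that passed in L1P with E1KD differed between L1P and another passaged line by a direct test in limma, and are listed here for that reason. L1P exceeded M1P by 4.30 for Nxf3, 4.08 for Abcb1b, 3.38 for AI662270, 3.12 for Dppa2, 3.04 for Cyp2c55 and 3.01 for Erbb3 on the log2 scale. It was below M1P with differences of -5.25 for Ly6e, -4.45 for Defb41, -3.67 for Gnb4, -3.67 for Scara3, -3.37 for Sprr1b and -3.34 for Pilra.

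L2P exceeded L1P by 2.93 for Epb41l4a, 2.02 for Tm4sf1, 1.44 for Wfdc15a and 1.38 for Cd177. It was below L1P with differences of -2.83 for AI662270, -2.08 for Cyp2j6 and -1.75 for Chst15.

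Probe sets without a single gene symbol stayed out of the test of genes. Of 10092 such probe sets 62 passed, 31 in each direction (0.614%). The probe set 1437133_x_at stood at 10.64 in E1KD and 4.08 in L1P, a difference of -6.55, and 1456590_x_at differed by -6.31. Another fell by 6.07, and 1430323_at rose by 2.52. They are unnamed here.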

How the results depend on the processing

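The 452 genes were 280 with only genes above the median signal, 1195 with only the L1P and E1KD arrays, 991 with the M1P arrays left out of the model, 836 without M1P array 1 alone and 1591 with array weights, and 272 to 298 with 1 array left out. At least 2-fold, the 278 genes were 162 among genes above the median signal. The 62 probe sets without a single symbol were 100 without the M1P arrays, 138 with array weights and 30 to 43 with 1 array left out. Pcbp1, at -0.75, had an adjusted p of 0.0399 without the M1P arrays and a difference of -0.74 (0.0155) with array weights, and did not pass otherwise. With the replicate number as a block (replicate block) the 452 genes were 600, of which 443 were shared, and Eno2 did not pass. Same-numbered E1KD and L1P arrays deviated with correlations of 0.5, -0.19 and -0.34, which share no common sign. On several chromosomes, however, array 1 had the lowest median difference of its line in E1KD, M1P, L1P and L2P. Among these were the X, chromosome 13 and chromosome 14. On others, such as 11 and 17, array 1 had the highest in the same lines. The array 1 medians were -0.1, -1.38, -0.22 and -0.52 on the X and -0.04, -0.45, 0.53 and 0.38 on chromosome 14. In NMuMG array 1 was not the lowest on either. Whether same-numbered arrays were handled together was not tested. Of 93 named genes called, 67 passed under all 14 alternatives that tested them, and 26 were lost on leaving out at least 1 array. No called gene reversed. Among uncalled neighbours near 0, Ltb4r1 turned to 0.02 with array weights and 0.03 after quantile normalization, and with 1 array left out the range was -0.08 to 0.04 for Ltb4r1, -0.06 to 0.15 for Cideb, -0.09 to 0.17 for Cpne6, -0.29 to 0.06 for Rec8, -0.26 to 0 for Nrl and -0.2 to 0 for Fitm1. The causes were not tested.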

Other observations

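Some further genes of L1P with E1KD were singled out after their values were seen, and each value is from limma with an adjusted p over all genes. Several encode transporters. Beside the rise of Abcb1b, Abcc4, an exporter of cyclic nucleotides, rose 2.46-fold (adjusted p = 0.00978). Abcg2, a drug efflux pump, read 8.79, 8.65 and 8.72 in E1KD and 6.31, 6.26 and 6.04 in L1P (5.72-fold lower, adjusted p = 0.000445). Abcc2, an exporter of conjugates, fell 5.9-fold (0.000204) and the organic anion transporter Slco1a5 5.33-fold (1.39e-05). Abcb1a, the close relative of Abcb1b, did not pass at 0.43, nor did Abcc1 at -0.10. Abcc4 failed without 2 of the 6 arrays left out in turn (adjusted p up to 0.0599), and it lies on chromosome 14, while Abcc2 lies on chromosome 19.

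Vegfc, a growth factor of lymphatic vessels, read 6.69, 6.27 and 6.20 in E1KD and 4.16, 3.43 and 3.82 in L1P (5.98-fold lower, adjusted p = 0.000189), and the vasoconstrictor peptide gene Edn1 fell 2.38-fold (0.00348). Angpt2 fell 2.19-fold (0.0435), a call lost without 5 of the 6 arrays (up to 0.207), and Vegfa did not pass at -0.21. Of genes that handle lipids, and are not in the sterol list, those picked for their falls were the sterol reductase Tm7sf2 (2.99-fold lower), the desaturases Fads2 (2.08-fold) and Fads1 (1.83-fold) and the fatty acid carrier Fabp5 (1.82-fold). Tm7sf2, Fads1 and Fads2 lie on chromosome 19, where the median was lower, and their calls were lost without 4, 6 and 6 of the 6 arrays (up to 0.0692, 0.188 and 0.176).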
